A study of Mus musculus with 9 samples.

Results

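The subject is a set of 53 mouse genes that act in G2 phase and mitosis, listed by name, of 78275 gene IDs in the count table. Symbols were matched to the table's Ensembl IDs, all 53 were found, and all 53 passed the filter on low counts that left 27773 genes tested. RNA was sequenced from embryonic forebrain cells that had taken up a plasmid. Wild-type embryos were electroporated in utero at E14.5 (embryonic day) with a vector that carries mCherry and a hairpin placed in a microRNA backbone. The hairpin targets Gpc4 (sh-Gpc4, labelled as Gpc4 knockdown), Gpc2 (sh-Gpc2, labelled as Gpc2 knockdown) or is a scramble (sh-NT, labelled as wild type). mCherry-positive cells were sorted 48 h later, at E16.5, so every group had been electroporated and sorted, and the knockdown acts only in the electroporated cells. Each group has 3 libraries, named here by the number in their column: sh-NT 1, 2 and 4, sh-Gpc4 1, 3 and 4, and sh-Gpc2 1, 2 and 4. The series asks how the glypicans Gpc4 and Gpc2, heparan sulfate proteoglycans of the cell surface, act in cortical development.

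In the embryonic cortex, radial glia in the ventricular zone and intermediate progenitors divide, while the neurons they produce leave the cell cycle for good. A dividing cell makes cyclin B and its partner kinase in G2, condenses its chromosomes, attaches them to the spindle through kinetochores, and is then pushed out of mitosis by the anaphase-promoting complex, which destroys cyclin B. Most transcripts of this programme are low in G0 and G1 and peak in G2 and mitosis, so their sum in a bulk sample depends on how many cells are cycling. The DREAM complex silences many of these promoters in resting cells, and B-Myb and FoxM1 bound to the MuvB core activate them later, through a short element called the CHR (cell cycle genes homology region). Many also hold CCAAT boxes, the sites of the factor NF-Y.

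Promoters of the set were read from RefSeq (GRCm38.p6, 250 bases before to 50 bases after the start site) to show these elements beside the expression data. An entry was found for 47 of the 53 genes, and Cdc25c, Aurkb, Tpx2, Dlgap5, Smc4 and Cdca2 had none in the table. The motifs searched, on both strands, were TTTGAA, which the other strand shows as TTCAAA, then TTCGAA, which reads alike on either strand, and CCAAT, which the other strand shows as ATTGG. The 6 promoters below belong to the mitotic kinase gene Cdk1, its cyclin Ccnb1, the chromosome genes Top2a and Mki67, the kinetochore gene Cenpf, and G2e3. G2e3 is shown as a promoter with none of the motifs. It was also among the few genes with another pattern across libraries, and whether the 2 traits go together was not tested. Nuf2, Nusap1, Tacc3 and Birc5, also without motifs, followed the main pattern. Cks2, Kif20b, Ctcf and Tmpo, which shared the other pattern, hold motifs. Each promoter runs 5′ to 3′ on the gene's own strand, and capitals mark the motifs.
Cdk1 (chr10:69352863-69353162, minus strand): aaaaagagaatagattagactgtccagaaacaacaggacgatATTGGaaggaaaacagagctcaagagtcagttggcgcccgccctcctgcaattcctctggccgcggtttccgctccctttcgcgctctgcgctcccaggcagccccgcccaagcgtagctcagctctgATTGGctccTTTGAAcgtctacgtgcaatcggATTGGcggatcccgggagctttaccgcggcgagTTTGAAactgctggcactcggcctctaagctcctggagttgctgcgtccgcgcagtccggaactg
Ccnb1 (chr13:100786437-100786736, minus strand): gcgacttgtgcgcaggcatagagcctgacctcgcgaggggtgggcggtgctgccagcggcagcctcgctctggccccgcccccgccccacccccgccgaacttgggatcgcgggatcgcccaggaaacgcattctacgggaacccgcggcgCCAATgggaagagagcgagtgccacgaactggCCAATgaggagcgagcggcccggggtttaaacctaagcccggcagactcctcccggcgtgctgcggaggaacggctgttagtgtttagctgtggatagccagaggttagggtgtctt
Top2a (chr11:99024140-99024439, minus strand): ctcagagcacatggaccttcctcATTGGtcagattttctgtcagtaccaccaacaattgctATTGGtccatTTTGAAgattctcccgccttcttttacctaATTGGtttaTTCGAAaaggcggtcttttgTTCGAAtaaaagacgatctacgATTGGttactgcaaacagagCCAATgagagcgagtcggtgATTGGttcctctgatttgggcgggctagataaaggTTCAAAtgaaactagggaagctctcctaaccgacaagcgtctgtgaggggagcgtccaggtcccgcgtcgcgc
Mki67 (chr7:135716330-135716629, minus strand): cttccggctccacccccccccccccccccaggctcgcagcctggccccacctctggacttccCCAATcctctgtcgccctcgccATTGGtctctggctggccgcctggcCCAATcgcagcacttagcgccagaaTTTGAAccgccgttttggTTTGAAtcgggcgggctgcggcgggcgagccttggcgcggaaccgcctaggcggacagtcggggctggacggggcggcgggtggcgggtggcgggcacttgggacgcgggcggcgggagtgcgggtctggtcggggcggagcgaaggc
Cenpf (chr1:189688037-189688336, minus strand): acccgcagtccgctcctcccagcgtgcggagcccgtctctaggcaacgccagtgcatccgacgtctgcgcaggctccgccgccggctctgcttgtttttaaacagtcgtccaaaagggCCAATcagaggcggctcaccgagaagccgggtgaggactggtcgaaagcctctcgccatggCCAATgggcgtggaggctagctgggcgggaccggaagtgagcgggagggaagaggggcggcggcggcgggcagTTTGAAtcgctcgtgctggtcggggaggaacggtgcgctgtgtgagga
G2e3 (chr12:51347980-51348279, plus strand): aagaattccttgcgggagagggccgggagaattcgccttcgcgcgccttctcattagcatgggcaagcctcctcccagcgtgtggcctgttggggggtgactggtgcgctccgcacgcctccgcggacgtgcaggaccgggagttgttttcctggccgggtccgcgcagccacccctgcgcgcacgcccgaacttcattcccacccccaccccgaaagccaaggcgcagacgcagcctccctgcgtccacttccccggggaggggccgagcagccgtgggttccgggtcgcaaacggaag

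Cdk1 holds TTTGAA at positions -71 and -15 from the start site and 3 CCAAT boxes, at -208, -80 and -48. Top2a holds 4 CHR-type matches and 6 CCAAT boxes, Mki67 holds 2 and 3, and Cenpf holds 1 and 2. Ccnb1 holds 2 CCAAT boxes and none of the CHR spellings searched. TTTGAA or TTCGAA occurred in 36 of the 47 promoters (76.6%) and in 21.7% of the 27025 genes with an entry. CCAAT occurred at least once in 36 (76.6%, against 41.1% of all), and more than once in 29 (61.7%, against 13.3%). Both kinds stood together in 29 (61.7%, against 8.61%). Nuf2, Nusap1, Tacc3, Birc5 and G2e3 held neither. Of 153 matches over all promoter entries, 2 pairs overlapped. There were 5 genes with 2 promoter entries, of which either could count, and a site shared by both entries of a gene is counted in each. These are matches of letters and not measured binding. In the library where most of the set was highest, described next, the 29 genes with both kinds lay a median 0.38 above their own means on the log2 scale, and the other 18 with an entry also 0.38 above. In sh-Gpc4 3 these medians were 0.13 and 0.21, and in sh-Gpc2 1 they were -0.056 and -0.12. Whether the motifs go with these levels was not tested.

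Total counts ran from 48045603 to 66538437 reads per library, and the least covered member had 1472 reads in a library, so counting error was small beside the spread between libraries. Separate animals or litters are not named in the labels, so p-values cover only the spread among these samples. The targeted transcripts did not pass the test after adjustment. The sh-NT libraries held 164, 188 and 175 CPM of Gpc4 (reads scaled to library size by TMM) and the sh-Gpc4 libraries 137, 99.9 and 129. The log2 fold change was -0.53 (SE 0.21, edgeR unadjusted p = 0.033, adjusted p = 0.488). All sh-Gpc4 values lay below all of sh-NT, as in 13.2% of all genes. Gpc2 stood at 199.5, 207 and 161 CPM in the controls, with 167, 145 and 79.5 in sh-Gpc2, and these groups overlapped. Its log2 fold change was -0.54 (SE 0.33, edgeR unadjusted p = 0.14, adjusted p = 0.968). In sh-Gpc4 the Gpc2 level was 168, 70.2 and 96.6 CPM, -0.76 (SE 0.33) against sh-NT (edgeR unadjusted p = 0.046, adjusted p = 0.488), with the lowest Gpc2 value of the 9 in sh-Gpc4 3, and Gpc4 in sh-Gpc2 was at 145, 216 and 116 CPM. Between the knockdown groups both transcripts overlapped, with -0.38 (SE 0.21) for Gpc4 and -0.23 (SE 0.33) for Gpc2, so the targets do not separate these groups. Principal components were taken over genes with a mean log2 CPM above 3. On the first (71.7% of the variance) sh-Gpc4 3 and sh-Gpc2 4 lay farthest out, with scores of 46.7 and 36.6. Next came sh-Gpc4 4 at 15.8, and the other 6 lay from -25.8 to -5.71. On the second (12%) sh-Gpc2 2 was farthest out. All 20 radial glia, 15 intermediate progenitor and 15 excitatory neuron markers had reads in every group, 2 of the radial glia markers at a mean under 1 CPM. In sh-NT they summed to 4005 to 4366, 1788 to 1835 and 5605 to 6710 CPM. Every marker of the other cell type lists had reads too, so reads alone do not show that a cell type was present. The 16 microglia and macrophage markers had summed levels of 1224 to 1900.2 CPM in sh-NT, 1733 to 2459 CPM in sh-Gpc4 and 661 to 2305 CPM in sh-Gpc2. Endothelial, mural and erythroid markers summed to 97.2 to 203 CPM. Markers of GABAergic cells, ventral progenitors and oligodendrocyte precursors summed to 27.5 to 57.0 CPM in sh-NT, 21.5 to 24.6 in sh-Gpc4 and 25.7 to 33.0 in sh-Gpc2.

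The G2 and mitosis genes varied together from library to library, and 1 library set the pattern. Summed over the 53 genes, the level was 8926, 8333 and 8028 CPM in sh-NT, 7796, 8842 and 7624 in sh-Gpc4 and 8075, 10956 and 7964 in sh-Gpc2 (libraries in the order of their numbers, as in every list of 3 values here). sh-Gpc2 2 was the highest of the 9, and the 3 groups overlapped. In bulk RNA, fewer cycling cells and less RNA per cycling cell cannot be told apart. The mean log2 CPM over the set was 7.02 ± 0.085 in sh-NT (mean ± SD, n = 3), 6.97 ± 0.12 in sh-Gpc4 and 7.11 ± 0.26 in sh-Gpc2. The SD of sh-Gpc2 exceeds every difference between these means.

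Of the 53 genes, 48 (90.6%) had their highest value in sh-Gpc2 2. The same was true of 14.7% of all genes tested, and of 23.8% of the 5834 tested genes in the same range of mean level. The other 5, Cks2, G2e3, Kif20b, Ctcf and Tmpo, were highest in sh-Gpc4 3. Against the mean of the other 8 libraries, the set lay a median 0.45 higher in sh-Gpc2 2 on the log2 scale, a ratio of 1.36, with 51 of 53 genes above their own mean over the 9 libraries. The median of all genes tested in the same library was 0.020. sh-Gpc4 3 followed, at 0.17 with 39 genes above, and the lowest were sh-Gpc4 4 (-0.16, 2 above) and sh-Gpc4 1 (-0.15, 3 above). The highest library of a gene stood 1.34 to 2.31 times above its lowest (median 1.52). These values come from the libraries that were found to differ, and give no test.

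**Figure D1:**
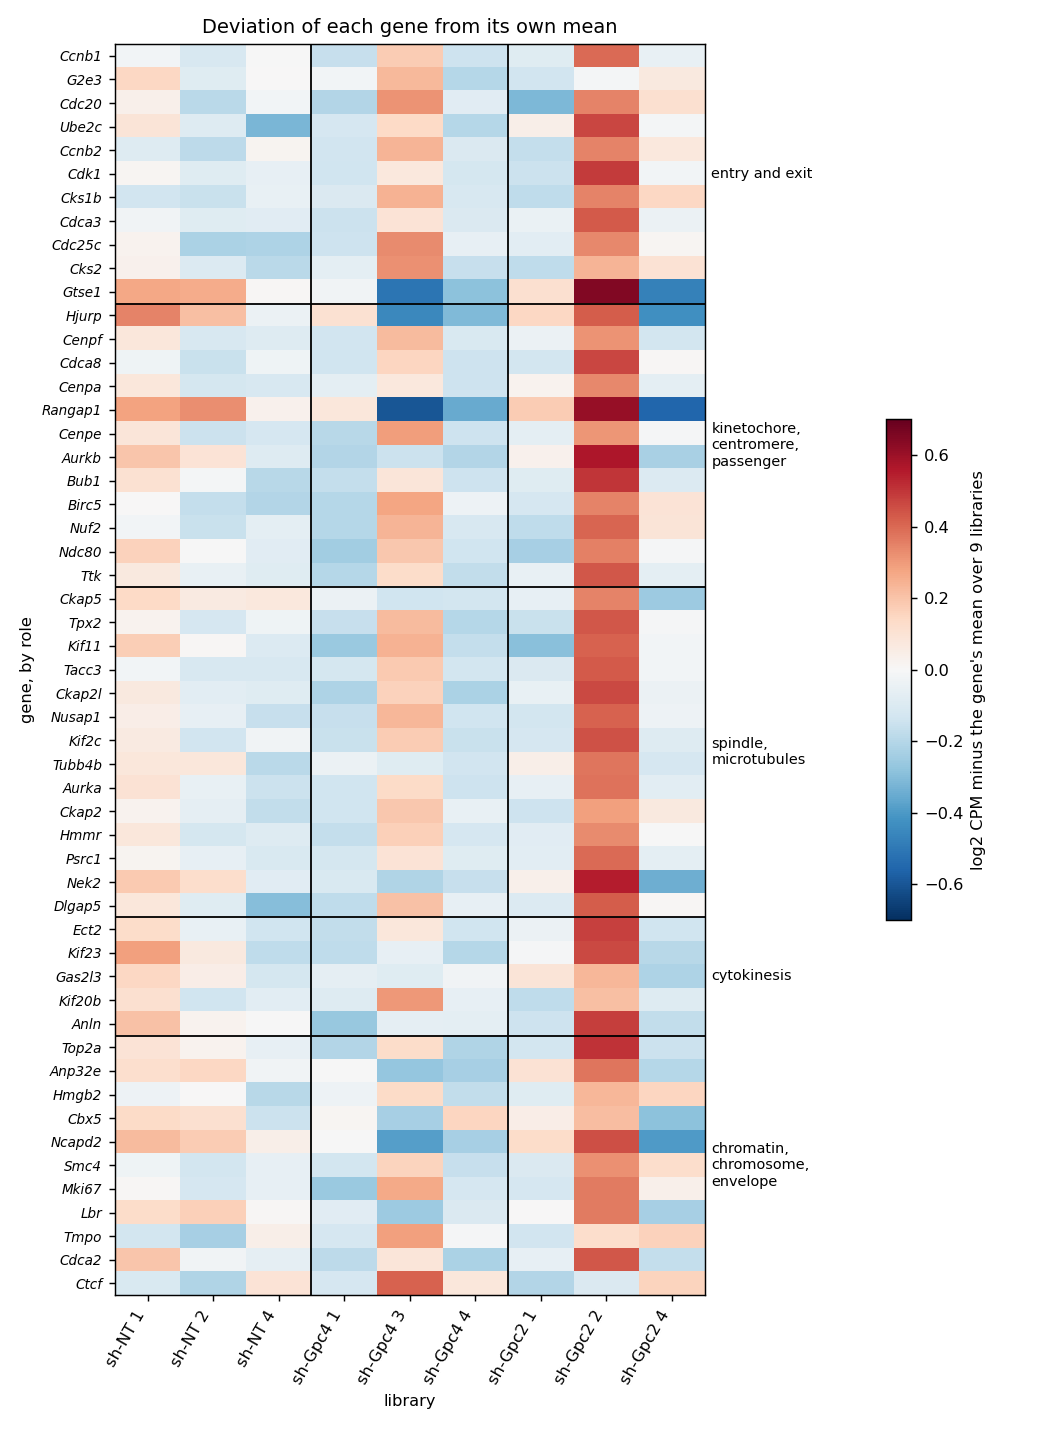
Each cell is 1 gene in 1 library, coloured by log2 CPM minus the gene's mean over the 9 libraries, with genes in rows ordered by role and libraries in columns. The sh-Gpc2 2 column is red for 51 of 53 genes, sh-Gpc4 3 is red for 39 and blue for 14, and the sh-Gpc4 1 and 4 columns are blue for 50 and 51.

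The regulators of entry into and exit from mitosis number 11. They are the kinase Cdk1 and its cyclins Ccnb1 and Ccnb2, the small Cdk-binding subunits Cks1b and Cks2, and Cdc25c, the phosphatase that switches Cdk1 on. Cdc20 and Ube2c, an activator and a ubiquitin-conjugating enzyme of the anaphase-promoting complex, act at exit. Cdca3, Gtse1, a microtubule-binding protein of G2, and G2e3, a ubiquitin ligase of G2, complete the group. Per kilobase of exon they ran from 15.3 CPM per kb for Cdc25c to 94.0 for Ccnb2. Cdk1 (ENSMUSG00000019942, chromosome 10, 69335146 to 69352938, minus strand, GRCm38 as for all coordinates here) was at 128, 119 and 122 CPM in sh-NT, 115, 133 and 116 in sh-Gpc4 and 114, 178 and 125 in sh-Gpc2. Ccnb1 (ENSMUSG00000041431, chromosome 13, 100778650 to 100786570, minus strand) was at 255, 239 and 258 CPM in sh-NT, 231, 292 and 234 in sh-Gpc4 and 244, 340.1 and 249 in sh-Gpc2. In both genes sh-Gpc2 2 was the highest library and sh-Gpc4 3 the second. Ube2c (ENSMUSG00000001403, chromosome 2, 164769898 to 164778822, plus strand) was at 157, 139 and 118 CPM in sh-NT, 136, 163 and 129 in sh-Gpc4 and 152, 204 and 146 in sh-Gpc2, with its lowest value in sh-NT 4 and overlapping groups. Gtse1 (ENSMUSG00000022385, chromosome 15, 85859745 to 85876573, plus strand) was at 50.2, 49.7 and 41.8 CPM in sh-NT, 40.9, 29.2 and 34.0 in sh-Gpc4 and 44.8, 65.1 and 29.9 in sh-Gpc2. It was highest in sh-Gpc2 2 like the others, but lowest in sh-Gpc4 3 and sh-Gpc2 4, and all 3 sh-Gpc4 values lay below all 3 of sh-NT.

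The 12 genes of the kinetochore, the centromere and the chromosomal passenger complex link chromosomes to the spindle and check the link. Ndc80 and Nuf2 form the rod that grips microtubules, Bub1 and Ttk are checkpoint kinases, Cenpe is a kinesin and Cenpf a large scaffold. Cenpa is the centromeric histone variant and Hjurp its chaperone. Aurkb is the kinase of the passenger complex, and Birc5 (survivin) and Cdca8 (borealin) are its partners. Rangap1 activates the GTPase of Ran at nuclear pores and kinetochores. Levels ran from 8.20 CPM per kb for Ndc80 to 36.1 for Aurkb. Aurkb (ENSMUSG00000020897, chromosome 11, 69045647 to 69051664, plus strand) was at 119.6, 112 and 98.2 CPM in sh-NT, 90.8, 94.3 and 90.7 in sh-Gpc4 and 107, 155 and 89.5 in sh-Gpc2. The sh-Gpc4 values were within a few CPM of each other and below all of sh-NT, while sh-Gpc2 held both the highest and the lowest of the 9. Cenpf (ENSMUSG00000026605, chromosome 1, 189640606 to 189688086, minus strand) was at 209, 182 and 185 CPM in sh-NT, 179, 229.8 and 183 in sh-Gpc4 and 192, 245 and 180.1 in sh-Gpc2, with sh-Gpc2 2 and sh-Gpc4 3 above the rest. Hjurp (ENSMUSG00000044783, chromosome 1, 88262471 to 88277633, minus strand) was at 277, 252 and 212 CPM in sh-NT, 235, 159.6 and 176 in sh-Gpc4 and 241, 292 and 162 in sh-Gpc2. Rangap1 (ENSMUSG00000022391, chromosome 15, 81704248 to 81745530, minus strand) was at 181, 186 and 151 CPM in sh-NT, 157, 98.0 and 116 in sh-Gpc4 and 168, 227 and 101 in sh-Gpc2. Hjurp and Rangap1 had their lowest values in sh-Gpc4 3 and sh-Gpc2 4, and their groups overlapped. Birc5 (ENSMUSG00000017716, chromosome 11, 117849251 to 117855743, plus strand) was at 85.2, 75.8 and 73.8 CPM in sh-NT, 74.2, 103 and 83.0 in sh-Gpc4 and 78.4, 108 and 91.0 in sh-Gpc2, highest in sh-Gpc2 2 and sh-Gpc4 3.

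Spindle and microtubule genes number 14. Kif11 is the kinesin that pushes the poles apart, Aurka the pole kinase and Tpx2 its activator, and Ckap5 is a microtubule polymerase that works with Tacc3. Kif2c shortens microtubules, Nek2 is a kinase of centrosome separation, and Tubb4b is a beta-tubulin. Nusap1, Ckap2, Ckap2l, Dlgap5, Hmmr and Psrc1 bind spindle microtubules. Levels ran from 8.10 CPM per kb for Dlgap5 to 60.5 for Tacc3. Ckap5 (ENSMUSG00000040549, chromosome 2, 91526762 to 91620664, plus strand) was at 423, 400.4 and 403 CPM in sh-NT, 372, 348 and 351 in sh-Gpc4 and 368, 487 and 322 in sh-Gpc2. Its sh-Gpc4 values all lay below those of sh-NT, and sh-Gpc2 spanned both groups. Tacc3 (ENSMUSG00000037313, chromosome 5, 33658128 to 33678995, plus strand) was at 210.3, 197 and 198 CPM in sh-NT, 196, 242 and 195 in sh-Gpc4 and 199, 288 and 210.0 in sh-Gpc2, with 7 libraries within a narrow range and sh-Gpc2 2 and sh-Gpc4 3 above it. Tubb4b (ENSMUSG00000036752, chromosome 2, 25222160 to 25224702, minus strand) was at 124, 124 and 103 CPM in sh-NT, 114, 110.4 and 107 in sh-Gpc4 and 120.4, 152 and 108 in sh-Gpc2. A processed copy, Tubb4b-ps1, matches 83.8% of its transcript at 98.4% identity, so its count is uncertain.

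Cytokinesis is represented by 5 genes. Anln is a scaffold of the contractile ring, Ect2 acts at the cleavage plane, and Kif23 is the kinesin of the central spindle. Kif20b and Gas2l3 act at the midbody. Levels ran from 5.14 CPM per kb for Anln, the lowest of the 53, to 30.3 for Ect2. Ect2 (ENSMUSG00000027699, chromosome 3, 27097222 to 27153878, minus strand) was at 177, 156 and 147 CPM in sh-NT, 143, 171 and 147 in sh-Gpc4 and 157, 225 and 147 in sh-Gpc2, with sh-Gpc2 2 above the other 8. Kif23 (ENSMUSG00000032254, chromosome 9, 61915905 to 61946774, minus strand) was at 108, 93.3 and 78.7 CPM in sh-NT, 78.5, 85.2 and 77.3 in sh-Gpc4 and 88.5, 122 and 77.6 in sh-Gpc2. Its sh-NT values spread from the level of sh-Gpc4 upward, and sh-Gpc2 2 was again highest.

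The last 11 genes serve chromatin, chromosome structure and the nuclear envelope. Top2a untangles DNA, Smc4 and Ncapd2 are condensin subunits, and Mki67, the antigen Ki-67, coats mitotic chromosomes. Hmgb2, Anp32e, a histone variant chaperone, Cbx5, a heterochromatin protein, and Ctcf, an insulator protein, are also expressed outside mitosis. Lbr and Tmpo are proteins of the inner nuclear membrane, and Cdca2 brings a phosphatase to chromatin at mitotic exit. Levels ran from 12.7 CPM per kb for Tmpo to 132 for Anp32e. Mki67 (ENSMUSG00000031004, chromosome 7, 135689784 to 135716361, minus strand) was at 219, 201 and 209 CPM in sh-NT, 181, 261 and 200.4 in sh-Gpc4 and 201, 279.8 and 223 in sh-Gpc2. Top2a (ENSMUSG00000020914, chromosome 11, 98992943 to 99024189, minus strand) was at 604, 574 and 542 CPM in sh-NT, 489, 617 and 489 in sh-Gpc4 and 516, 802 and 509 in sh-Gpc2. Both were highest in sh-Gpc2 2 and second in sh-Gpc4 3, and their groups overlapped. Ncapd2 (ENSMUSG00000038252, chromosome 6, 125168007 to 125191701, minus strand) was at 300.2, 291 and 264 CPM in sh-NT, 257, 197 and 219 in sh-Gpc4 and 281, 352 and 195 in sh-Gpc2. Anp32e (ENSMUSG00000015749, chromosome 3, 95929246 to 95947390, plus strand) was at 507, 516 and 459.7 CPM in sh-NT, 466, 387 and 397 in sh-Gpc4 and 500.4, 605 and 407 in sh-Gpc2. Ncapd2 had all of sh-Gpc4 below sh-NT, whereas for Anp32e the groups overlapped. Smc4 (ENSMUSG00000034349, chromosome 3, 69004738 to 69034623, plus strand) was at 236, 220.5 and 232 CPM in sh-NT, 221, 269 and 216 in sh-Gpc4 and 225, 302 and 263 in sh-Gpc2, with its 3 highest values in sh-Gpc2 2, sh-Gpc4 3 and sh-Gpc2 4. Ctcf (ENSMUSG00000005698, chromosome 8, 105636568 to 105682922, plus strand), chosen for its different pattern after its values were seen, was at 71.2, 66.3 and 81.8 CPM in sh-NT, 70.8, 102 and 81.0 in sh-Gpc4 and 66.6, 71.5 and 85.5 in sh-Gpc2; it was highest in sh-Gpc4 3 and below its own mean in sh-Gpc2 2.

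**Figure D2:**
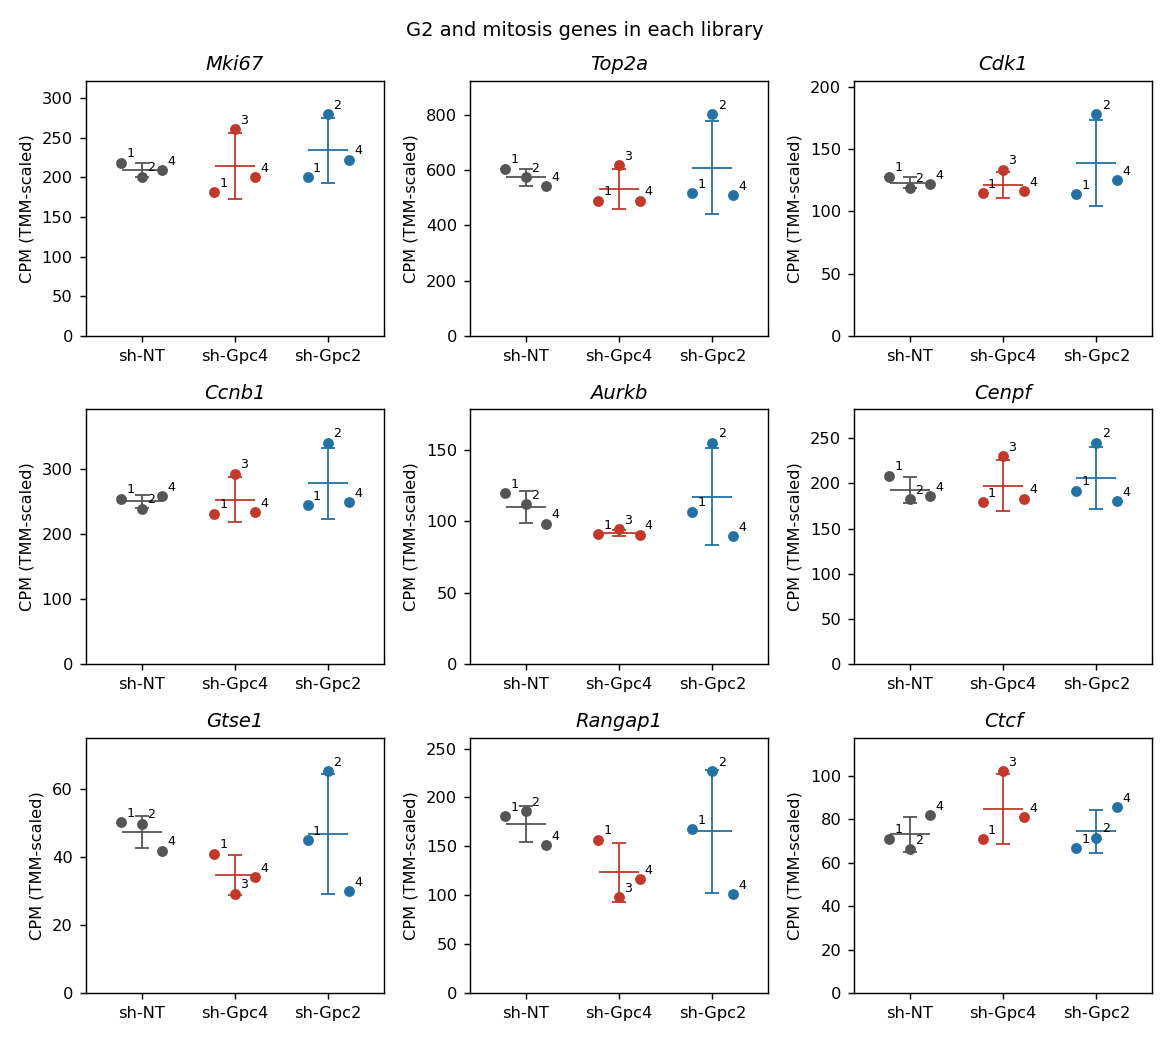
CPM of 9 genes in each library (points, labelled with the library number), by group, with the mean (long bar) and SD (whiskers, n = 3). sh-Gpc2 2 is the highest point in every panel but that of Ctcf, and in the panels of Gtse1 and Aurkb the sh-Gpc4 points all lie below those of sh-NT.

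In sh-Gpc4 against sh-NT, G2 and mitosis transcripts lay near the control level on balance. Their median log2 fold change was 0.0063, with 27 positive and 26 negative, and over all genes tested it was 0.022, with 52.8% positive. By role, 8 of 11 entry and exit regulators were positive and 4 of 5 cytokinesis genes negative; the medians were 0.043 and -0.082. No gene of the set was called by edgeR's quasi-likelihood test with Benjamini-Hochberg adjustment over all genes at a threshold of 0.05, where 0% of all genes were called, and the smallest adjusted p of the set was 0.489. None had an unadjusted p under 0.05 in edgeR, which 9.57% of all genes had, and DESeq2's Wald test and limma voom called none of the 53 after adjustment either. With limma voom, 11 of the 53 had an unadjusted p under 0.05, all lower, and so had 17.7% of all genes. With only those groups fitted in edgeR it was 9, all lower (11.3% of all genes). In 7 genes, Gtse1, Aurkb, Ckap5, Nek2, Anln, Ncapd2 and Lbr, all sh-Gpc4 values lay below all of sh-NT (13.2% of the 53; 13.2% of all genes tested did the same). The share lying below therefore equals the background. In 0 of the 53 did all lie above (10.8% of all genes).

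The lowest estimates in this comparison were those of Rangap1 and Gtse1. Gtse1 averaged 47.2 ± 4.73 CPM (SD, n = 3) in sh-NT, with 34.7 ± 5.90 in sh-Gpc4, for a log2 fold change of -0.44 (SE 0.25, 95% interval from -0.9996 to 0.11). Rangap1 was at 173 ± 18.8 and 124 ± 30.2 CPM, -0.48 (SE 0.27, 95% interval from -1.08 to 0.12). Ncapd2 was at 285 ± 18.6 and 225 ± 30.4 CPM, -0.34 (SE 0.19, 95% interval from -0.77 to 0.08). All 3 intervals hold 0, and edgeR's adjusted p was 0.489 for each. The estimate was -0.26 (SE 0.18) for Aurkb, -0.22 (SE 0.17) for Kif23 and -0.20 (SE 0.13) for Ckap5. The most used markers of cycling cells were near 0: 0.033 (SE 0.16) for Mki67, -0.017 (SE 0.15) for Cdk1, 0.011 (SE 0.14) for Ccnb1, 0.039 (SE 0.14) for Cenpf and -0.11 (SE 0.18) for Top2a. Upper bounds of the 95% intervals were all under 0.56, and lower bounds lay above -1, a 2-fold change, for every gene but Rangap1. The median rests on sh-Gpc4 3: without that library it was -0.090 with 6 of 53 positive, and without both sh-Gpc4 3 and sh-Gpc2 4 it was -0.11 with 4 positive, still with no call by edgeR. Mki67, Ccnb1 and Cenpf then had negative estimates.

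In sh-Gpc2 against sh-NT, estimates of the set lay above 0 more often than those of all genes, and this rested on sh-Gpc2 2. The median log2 fold change was 0.14, with 45 positive and 8 negative, where 50.7% of all genes were positive with a median of 0.0031. Without sh-Gpc2 2 the median was -0.034, with 20 of 53 positive. No gene of the set was called by edgeR (0% of all genes were), the smallest adjusted p was 0.968, none had an unadjusted p under 0.05 (2.56% of all genes did), and DESeq2 and limma voom called none. Without sh-Gpc2 1, 4 genes were higher at an unadjusted p under 0.05, as were 2.96% of all genes. No gene had groups that did not overlap, against 7.7% of all genes tested.

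Positive estimates spread over all roles in this comparison: 9 of 11 entry and exit regulators, 10 of 12 kinetochore genes, 13 of 14 spindle genes, 5 of 5 cytokinesis genes and 8 of 11 chromatin genes. Ube2c, which averaged 138 ± 19.5 CPM in sh-NT, with 168 ± 32.0 in sh-Gpc2, had the highest, 0.28 (SE 0.16, 95% interval from -0.076 to 0.63). Birc5 stood at 0.24 (SE 0.15, 95% interval from -0.095 to 0.58), Smc4 at 0.20 (SE 0.12, 95% interval from -0.08 to 0.48) and Tacc3 at 0.20 (SE 0.15, 95% interval from -0.12 to 0.53). Ect2 stood at 0.14 (SE 0.16). Among the markers of cycling cells, Mki67 was at 209.6 ± 8.93 and 234 ± 40.8 CPM, 0.16 (SE 0.16, 95% interval from -0.19 to 0.51), and Cdk1 at 123 ± 4.46 and 139 ± 34.2 CPM, 0.18 (SE 0.15, 95% interval from -0.17 to 0.52). In each the SD of sh-Gpc2 was several times that of sh-NT. The estimates were 0.15 (SE 0.14) for Ccnb1, 0.10 (SE 0.14) for Cenpf, 0.087 (SE 0.18) for Top2a and 0.09 (SE 0.18) for Aurkb, and without sh-Gpc2 2 they and those of Cdk1 and Ect2 turned negative. The 95% intervals of the 53 genes ran from -0.66 to 0.63, so none reached a 2-fold change in either direction.

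**Figure D3:**
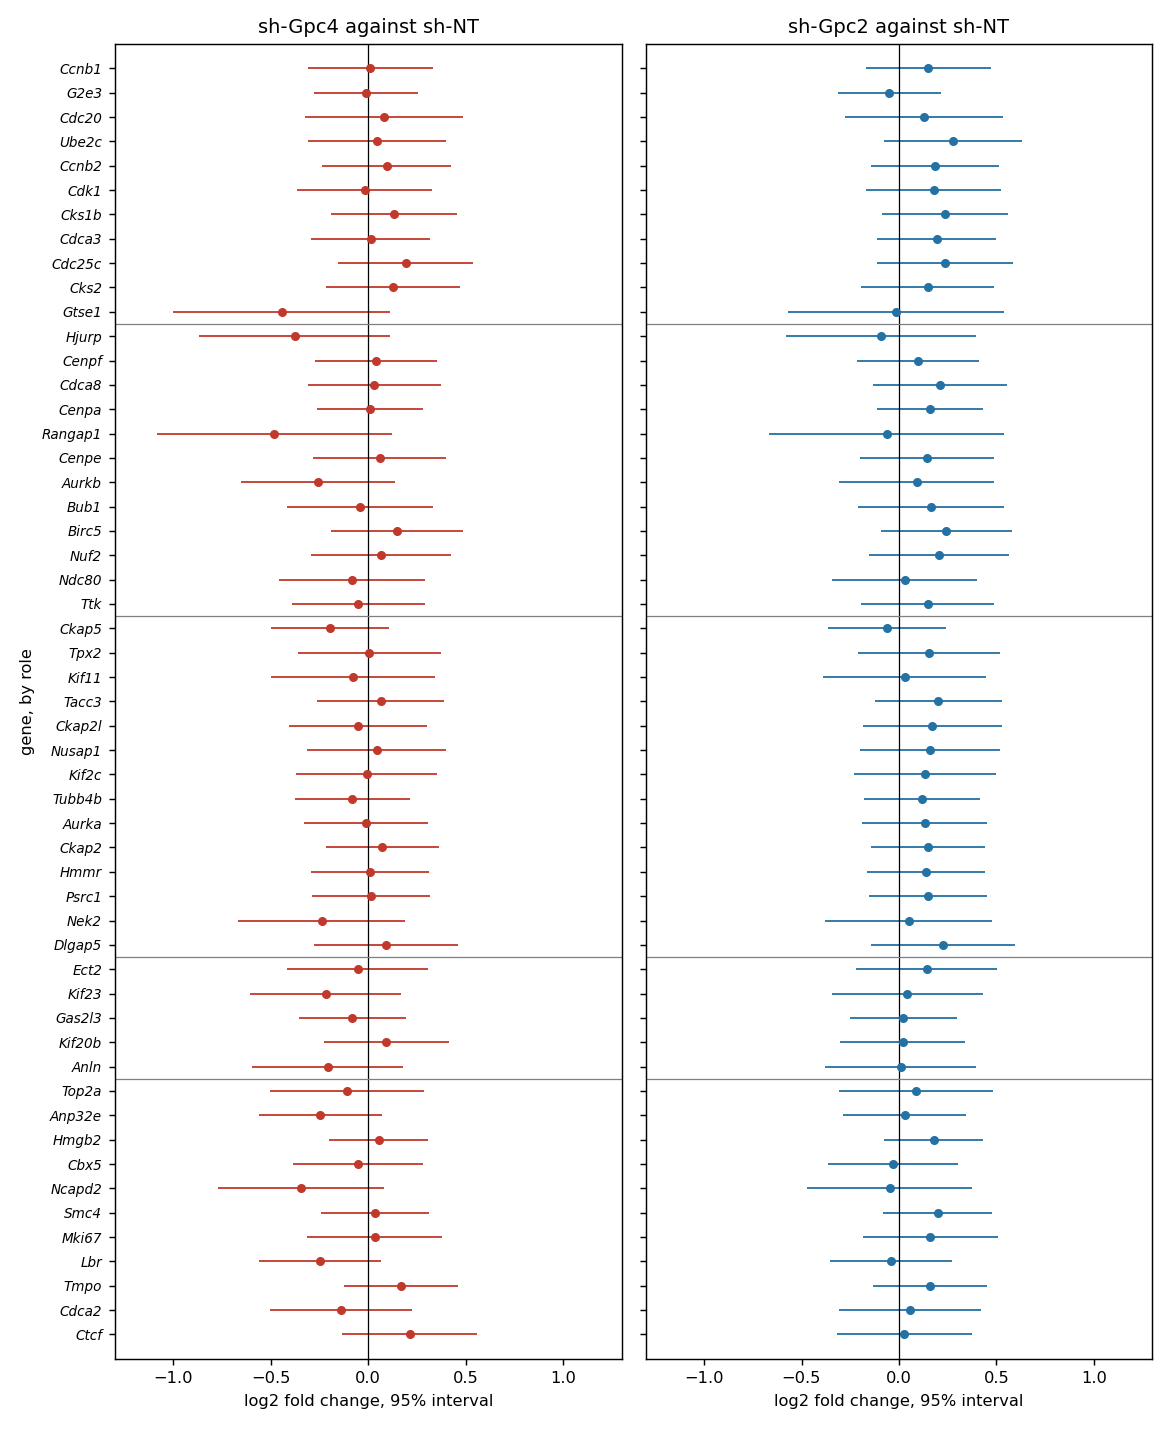
Log2 fold changes (points) with 95% intervals (lines) of the 53 genes, by role, for sh-Gpc4 and sh-Gpc2 against sh-NT in edgeR's fit. Every interval holds 0; the sh-Gpc4 estimates of Gtse1, Hjurp, Rangap1 and Ncapd2 lie farthest to the left.

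Both comparisons above share the sh-NT libraries, so their values are given side by side without a measure of likeness. Directly between the knockdowns, sh-Gpc4 lay below sh-Gpc2 for 49 of the 53 genes, with a median log2 fold change of -0.14, while 49.5% of all genes were positive. All 12 kinetochore and all 14 spindle genes were negative. No gene passed edgeR's test (0% of all genes did; smallest adjusted p of the set 0.966), none had an unadjusted p under 0.05 (2.89% of all genes did), and DESeq2 and limma voom called none. No gene had groups apart from each other (5.5% of all genes). Aurkb, at 91.9 ± 2.08 CPM in sh-Gpc4 and 117 ± 33.8 CPM in sh-Gpc2, stood at -0.35 (SE 0.18, 95% interval from -0.74 to 0.049), Gtse1 at -0.43 (SE 0.25), Anp32e at -0.27 (SE 0.14), Kif23 at -0.26 (SE 0.17) and Tubb4b at -0.20 (SE 0.13). Without sh-Gpc2 2 the median was 0.025 with 35 of 53 positive, so the direction turned with that library. Without sh-Gpc4 3 and sh-Gpc2 4 it was -0.31 with 1 of 53 positive; 16 genes were then lower at an unadjusted p under 0.05, as were 5.48% of all genes, and edgeR called none after adjustment. That setting leaves sh-Gpc2 2 as 1 of 2 libraries of its group, and so does leaving out sh-Gpc2 4 alone, with 10 genes lower (8.85% of all genes).

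A second pattern split the set in sh-Gpc4 3, and only in part in sh-Gpc2 4. In sh-Gpc4 3, 39 genes lay above their own mean (49.8% of all genes tested did) and 14 lay below. These were Rangap1, Gtse1, Hjurp, Ncapd2, Anp32e, Lbr, Cbx5, Nek2, Aurkb, Ckap5, Tubb4b, Gas2l3, Anln and Kif23. All 14 were also below their mean in sh-Gpc2 4, where 16 of the other 39 and 48.9% of all genes tested were above. In sh-Gpc2 2 all 14 were above their mean, as were 51 of all 53. The 14 were picked by their values in sh-Gpc4 3, so this gives no test. The GC content of the longest transcript was 48.3% in the median of the 14 and 45.2% in that of the others. Across the 53 genes, Pearson's r between GC content and deviation was -0.36 in sh-Gpc4 3, -0.33 in sh-Gpc2 4, -0.29 in sh-Gpc4 4, 0.46 in sh-Gpc2 2, 0.32 in sh-Gpc2 1 and 0.053 to 0.24 in the other 4; the genes share their library and are not independent. The part of base composition in the comparisons was not tested beyond removing its trend from every library. With that trend removed, the median log2 fold change was -0.075 for sh-Gpc4 against sh-NT, with 18 of 53 positive, 0.12 for sh-Gpc2 against sh-NT and -0.18 between the knockdowns.

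**Figure D4:**
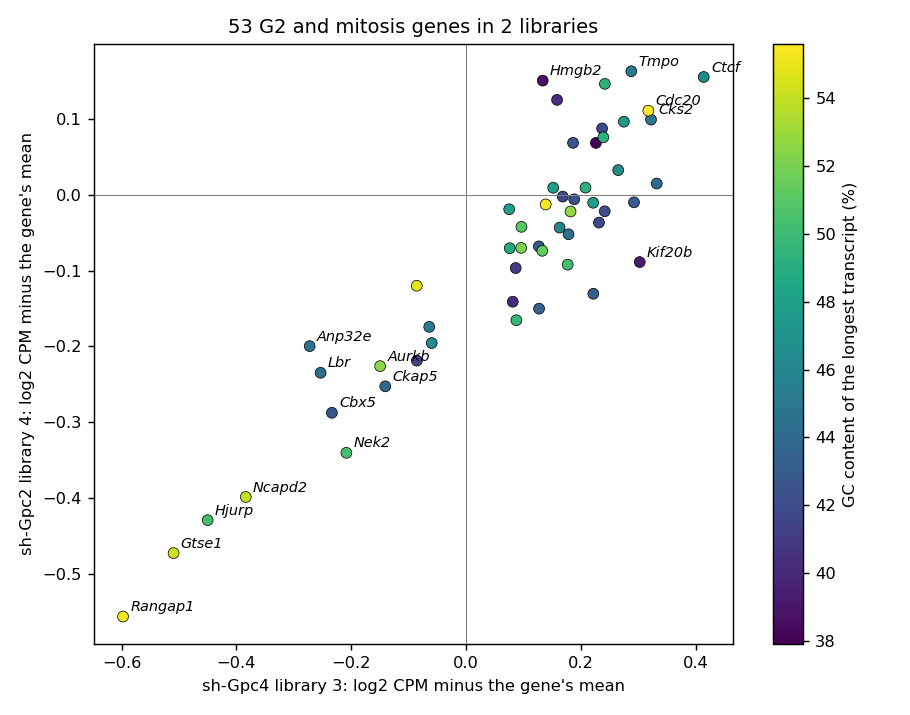
Deviation of each of the 53 genes from its own mean (log2 CPM) in sh-Gpc4 3 (horizontal) and sh-Gpc2 4 (vertical), coloured by GC content of the longest transcript. The 14 genes left of 0 all lie below 0 vertically, down to Rangap1, and the 39 genes right of 0 lie on both sides, 16 of them above.

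Genes of the same programme outside the set, 74 further G2 and mitosis genes found of 75 listed, showed the same highest library. On the scale of mean log2 CPM relative to the mean of all libraries, they lay at 0.42 in sh-Gpc2 2, beside 0.38 for the set, and at -0.041 in sh-Gpc4 3, beside 0.079. In sh-Gpc4 against sh-NT, 51 of 74 were negative (median -0.078) and 0 were called by edgeR. Unadjusted p was under 0.05 for 5, all lower (6.01% of all genes were lower at that level). Among them were Mybl2 (B-Myb), the activator that binds CHR promoters with MuvB, with 7.40, 8.21 and 7.12 CPM in the controls, then 5.25, 3.93 and 4.94 in sh-Gpc4, -0.69 (SE 0.23), Kif14, a kinesin of cytokinesis, -0.54 (SE 0.21), and Espl1 (separase), the protease that cuts cohesin, -1.20 (SE 0.47). Each had an edgeR adjusted p of 0.488. All sh-Gpc4 values lay below all of sh-NT for 21 of the 74, where 13.2% of all genes did the same, and above for 2, where 10.8% did. Without sh-Gpc4 3, 62 of 74 were negative, with a median of -0.16. In sh-Gpc2 against sh-NT, 60 of 74 were positive (median 0.077), with the smallest p for Pttg1 (securin), the inhibitor of separase, at 0.26 (SE 0.12), Spc24, of the Ndc80 complex, at 0.30 (SE 0.16), and Zwilch, of the spindle checkpoint, at 0.25 (SE 0.14). Without sh-Gpc2 2 the count was 13 of 74 and the median -0.089. Between the knockdowns 69 were negative (median -0.17), among them Mybl2 at -0.71 (SE 0.23) and Ncapg2, a condensin subunit, at -0.39 (SE 0.16); without sh-Gpc2 2, 30 were negative and the median was 0.017. edgeR called 0 of the 74 in any comparison.

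S phase genes, which act earlier in the cycle, were high with the set in sh-Gpc2 2 but not in sh-Gpc4 3. The 45 genes lay at 0.42 in sh-Gpc2 2 and -0.053 in sh-Gpc4 3 on the same relative scale. In sh-Gpc4 against sh-NT, 35 of 45 were negative (median -0.10), with E2f8, a transcriptional repressor of the cycle, at -0.72 (SE 0.33), Uhrf1, a partner of maintenance DNA methylation, at -0.73 (SE 0.36) and Mcm2, of the replicative helicase, at -0.51 (SE 0.29). In sh-Gpc2 against sh-NT, 38 of 45 were positive (median 0.084), with Rfc2, of the clamp loader, at 0.16 (SE 0.10), Slbp, the histone mRNA-binding protein, at 0.18 (SE 0.12) and Nasp, a histone chaperone, at 0.15 (SE 0.10). Without sh-Gpc2 2 it was 8 of 45, with a median of -0.10. Between the knockdowns 43 were negative (median -0.18), with Atad2 at -0.30 (SE 0.15), Mcm5, of the helicase, at -0.37 (SE 0.19) and Ung, a DNA repair glycosylase, at -0.32 (SE 0.18); without sh-Gpc2 2, 25 of 45 were. edgeR called none of the 45 in any comparison. Of 11 genes that mark exit from the cycle, 10 were tested, and 4 were positive and 6 negative in sh-Gpc4 against sh-NT, from -0.54 to 0.31. Unadjusted p was under 0.05 for 1 higher (3.56% of all genes) and 2 lower (6.01%). All of sh-Gpc4 lay above all of sh-NT for 3 (10.8% of all genes) and below for 2 (13.2%). In no comparison did edgeR call any. Members that moved both ways summed to 617 to 677 CPM in the 9 libraries.

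Some lists of cell type markers also stood at an end of their range in the library with the highest levels of the set. In sh-Gpc2 2 radial glia markers were at 0.40 relative to their mean over libraries, the highest of the 9. Excitatory neuron markers were at -0.15, the lowest of the 9, beside 0.22 in sh-NT 4. Intermediate progenitor markers were at 0.13, within their sh-NT values of 0.11 to 0.15. Microglia and macrophage markers were at -1.23, with a summed level of 661 CPM against 1224 to 2459 CPM in the other 8 libraries. Of these 16, 15 were positive in sh-Gpc4 against sh-NT, with a median log2 fold change of 0.48. All of sh-Gpc4 lay above sh-NT for 4 of them (10.8% of all genes tested). None had an unadjusted p under 0.05 in edgeR (9.57% of all genes). P2ry12, a receptor that defines microglia and the marker with the highest estimate of the 16, was at 23.4, 19.8 and 28.4 CPM in sh-NT, 49.9, 59.1 and 52.4 in sh-Gpc4 and 25.6, 4.27 and 57.4 in sh-Gpc2, 1.17 (SE 0.65). In sh-Gpc2 against sh-NT, 13 of the 16 microglia and macrophage markers were positive, with a median of 0.29. Of the markers of GABAergic cells, ventral progenitors and oligodendrocyte precursors, 11 of 14 were tested. In sh-Gpc4 against sh-NT 10 were negative, with a median of -1.69, and in sh-Gpc2 against sh-NT 9 were, with a median of -0.43. The control level was uneven, with sh-NT 1 far above the rest. Relative to their mean over libraries, these markers were at 1.35, 0.27 and -0.16 in sh-NT and -0.63, -0.92 and -0.38 in sh-Gpc4. edgeR called none of these markers. In sh-Gpc4 against sh-NT, an unadjusted p under 0.05 in edgeR was found for 6, all lower (6.01% of all genes were lower at that level). For 4, all of sh-Gpc4 lay below sh-NT (13.2% of all genes). Their mean was under 1 CPM for 6 of the 14 in sh-NT and 10 in sh-Gpc4. In sh-Gpc4 3, the library with the second highest median deviation of the set, radial glia markers were instead the lowest of the 9, at -0.40, intermediate progenitor markers were at -0.24 and neuron markers at 0.17. The part of cell composition in the levels of the set was not tested.

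**Figure D5:**
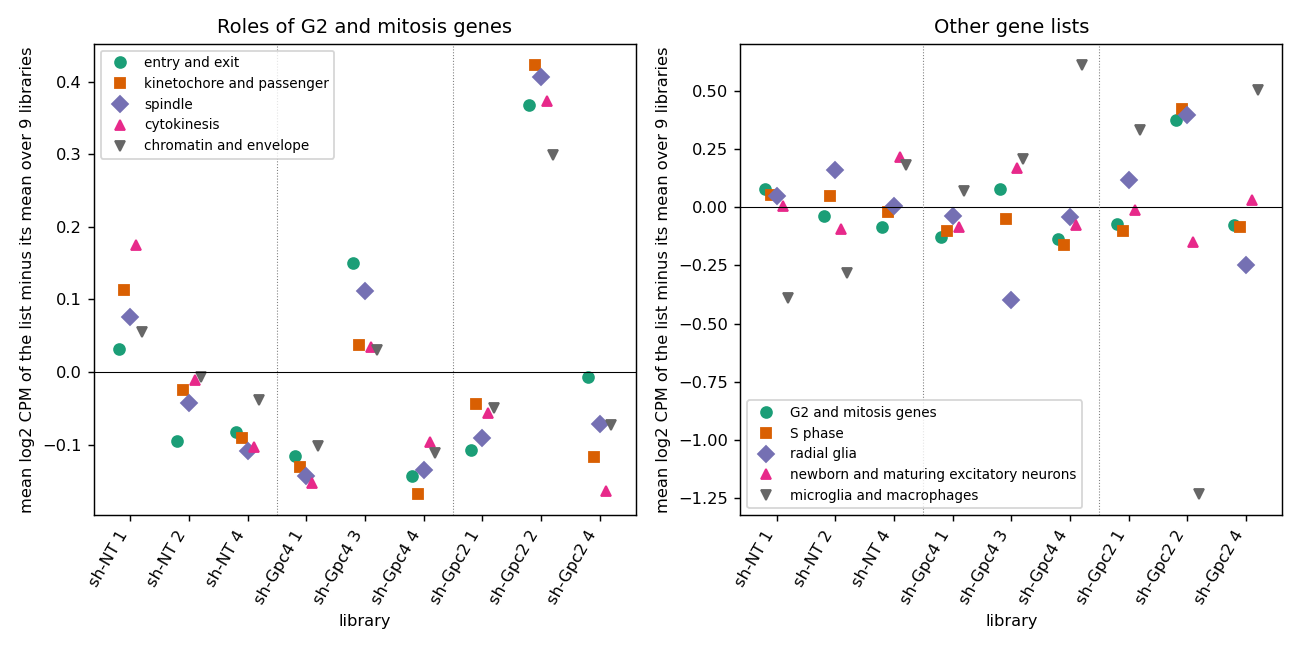
Mean log2 CPM of each gene list minus its mean over the 9 libraries, by library, for the 5 roles of the set (left) and for the set beside other lists (right). All 5 roles are highest in sh-Gpc2 2, where S phase and radial glia lists are also highest and the microglia and macrophage list is lowest, at -1.23.

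Some counts of the set are uncertain because reads could come from near-identical copies. Besides Tubb4b, pseudogenes match 51.9% of the Ccnb1 transcript, 34.7% of Cks2 and 24.1% of Hmgb2 at 95% identity or more. Exons on the opposite strand overlap 22.8% of the exon bases of Ube2c (Tnnc2), 12.7% of Cdc25c (Gm3550), 9.24% of Lbr (Dnah14) and 8.14% of Tacc3 (Tmem129). The sources used here do not give the strand setting of the counting, and without strand, reads of such stretches cannot be told apart.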

How the data were processed

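The labels' protocols name the PicoPure kit for RNA and a low-input NEBNext kit for the libraries. The authors deposited unnormalized counts of reads for each gene and library, made with featureCounts (Subread) on GRCm38, also named as mm10, per the submitters' processing notes. Not given in the sources used here: aligner, versions, annotation release, strand setting. Column numbers do not match the replicate numbers of the titles, so columns were assigned to groups only.

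Symbols came from GENCODE M21 (51486 of 78275 IDs matched). edgeR 4.0.16 (R 4.3.3) was fitted to the 9 libraries together, a coefficient for each group, with TMM scaling and its default filter. The quasi-likelihood test gave 3 comparisons, with Benjamini-Hochberg adjustment over 27773 genes and a threshold of 0.05. SE is the log2 fold change over the square root of F. Log2 CPM used a prior count of 2. Near copies were sought with BLAST+ 2.17.0 (at least 95% identity over 100 bases). On simulated counts for sh-Gpc4 against sh-NT, 79.5% of 200 genes changed 2-fold were recovered (27104 genes), and 73% for sh-Gpc2 against sh-NT (27092 genes). Those counts were drawn for each gene independently around the sh-NT means, and only genes over 5 CPM were changed. They hold no shifts shared across a library, as the real libraries do, so they check the fit and do not give its power here.

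The members, the gene lists and the rule for named genes were chosen with earlier results of these data known. The rule names all members, and gives full values to Mki67, Top2a, Cdk1, Ccnb1, Aurkb and Cenpf, to the member with the smallest p per role and comparison, and to the member with the highest CPM per role. Of the other G2 and mitosis genes and of S phase genes it names up to 3 per comparison with the smallest p. A further G2 and mitosis gene that the rule names between the knockdowns is not reported here. Alternatives were DESeq2 1.42.0 size factors and Wald test, limma 3.58.1 voom with sample weights, no filter, a stricter filter (over 5 CPM in 3 libraries or more), a prior count of 0.5, only the groups compared, each library left out, and a replicate block. Removing the GC trend (spline, 6 degrees of freedom, 22126 genes with a value) and leaving out sh-Gpc4 3 and sh-Gpc2 4 together were added after seeing the data. No pair of libraries of a group agreed within sampling noise.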

Additional observations from a re-analysis of the deposited data

How the results depend on the processing

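Over the alternatives run, edgeR, DESeq2 and limma voom called 0 of the 53 genes in any comparison. DESeq2's Wald test called 45 genes outside the set in sh-Gpc4 against sh-NT, where edgeR called 0 of all genes, and every other alternative called 0 genes in each comparison; the cause was not tested. With each library left out in turn, the median log2 fold change of the set ran from -0.090 to 0.048 for sh-Gpc4 against sh-NT, from -0.034 (without sh-Gpc2 2) to 0.22 for sh-Gpc2 against sh-NT, and from -0.25 to 0.025 (without sh-Gpc2 2) for sh-Gpc4 against sh-Gpc2. In sh-Gpc4 against sh-NT it was -0.083 with limma voom, with 6 of 53 positive. Group means of log2 CPM moved by less than their SD with DESeq2 size factors or a prior count of 0.5.

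Small estimates changed sign. In sh-Gpc4 against sh-NT, Mki67, Ccnb1 and Cenpf were at -0.056, -0.059 and -0.061 with limma voom, at -0.0074, -0.076 and -0.060 with the GC trend removed, and at -0.14, -0.12 and -0.092 without sh-Gpc4 3 and sh-Gpc2 4; the cause was not tested. Leaving out each library gave -0.12 to 0.14 for Mki67, -0.099 to 0.068 for Ccnb1, -0.075 to 0.10 for Cenpf and -0.080 to 0.020 for Cdk1. In sh-Gpc2 against sh-NT the same gave -0.16 to 0.20 for Top2a, -0.041 to 0.30 for Cdk1, -0.023 to 0.23 for Ccnb1, -0.16 to 0.25 for Aurkb, -0.047 to 0.19 for Cenpf and -0.073 to 0.26 for Ect2, negative only without sh-Gpc2 2.

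Unadjusted p under 0.05 depended on the fit. The edgeR fit reported gave 0 of the 53 in each comparison. For sh-Gpc4 and sh-NT, limma voom gave 11 lower (17.7% of all genes), only the groups compared 9 (11.3%), leaving out sh-Gpc2 4 gave 6 (11.4%), sh-Gpc2 2 gave 5 (6.15%), sh-Gpc4 1 gave 2 (11.8%), and no filter 4 (6.32%). For sh-Gpc2 and sh-NT the counts were 4 higher without sh-Gpc2 1 (2.96%), 1 lower without sh-Gpc2 2 (1.38%) and 1 higher without sh-Gpc4 3 and sh-Gpc2 4 (1.24%). Between the knockdowns, 16 were lower without those libraries (5.48%), 10 without sh-Gpc2 4 (8.85%), 4 with no filter (2.49%), 3 with limma voom (2.48%), and 1 each without sh-Gpc4 1 (3.82%) or sh-Gpc4 3 (0.854%). The other alternatives gave 0.

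Libraries of the same number did not all deviate together. Correlations of deviations were 0.048, 0.19 and 0.24 between sh-NT and sh-Gpc2, where each sh-NT library correlated best with its own number. They were 0.023 and 0.18 between sh-NT and sh-Gpc4, and 0.42 and -0.040 between the knockdowns. The highest of all pairs had different numbers, sh-Gpc4 3 and sh-Gpc2 4, at 0.59. Another such pair, sh-NT 2 and sh-Gpc4 1, was at 0.29. With the number as a replicate block, edgeR called 0 genes in each comparison, as without it, and the medians of the set were -0.039, 0.13 and -0.16. Mki67, Ccnb1 and Cenpf were then at -0.087, -0.050 and -0.036 in sh-Gpc4 against sh-NT. With 3 libraries a group and this spread, differences of the sizes seen here could not be separated from 0, although counts were deep.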
